A study of Mus musculus with 9 samples.

Results

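Mitotic kinesins are motor proteins that walk along microtubules, or take their ends apart, while a cell divides. Here they are 10 genes chosen by name, Kif11, Kif14, Kif15, Kif18a, Kif20a, Kif20b, Kif22, Kif23, Kif2c and Kif4, out of 19938 genes named on a mouse whole-transcript array. They are read by 11 of its 28853 probe sets, because Kif14 has 2. All 10 passed a filter on low values and were among the 11963 genes tested. These genes and the lists set beside them were chosen with earlier results of these data known.

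The RNA came from NIH-3T3 cells, an immortal line of mouse embryonic fibroblasts, 48 hours after transfection of 25 nM RNA with the lipid reagent DharmaFECT 1. The mimic group was given an RNA that does the work of miR-378-3p, and the inhibitor group one that binds and blocks this microRNA. The control group was given a RISC-free siRNA, chemically altered so that the silencing machinery does not take it up. There were 3 arrays per group. Whether they stand for 3 cultures the labels do not say. A p-value here therefore sets a group difference only against the scatter of these arrays, and that scatter may be technical. No mimic or inhibitor of another sequence was among the samples, so an effect of miR-378-3p and an effect of any such RNA cannot be told apart.

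All 9 fibroblast markers examined, among them Col1a1, Col1a2 and Vim, lay between the 86.8th and 100th percentile of gene levels. Of 18 markers of macrophages, epithelium, endothelium, muscle and adipocytes, 7 lay above the level filter, none higher than the 54.4th percentile. The median value of an array ran from 3.94 to 4.03 on the log2 scale. The array called mimic 3 and the array called inhibitor 1 stood at the ends of the first principal component (60.5% of the variance), with scores of -20.5 and 20.88 against -4.38 to -2.78 for the controls.

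Most mitotic kinesins are made from late S phase to mitosis and are removed after division, so their transcripts are abundant only in populations of dividing cells. Kif11 and Kif15 build and hold the bipolar spindle. Kif2c, Kif18a, Kif22 and Kif4 act on chromosomes and on the microtubule ends that hold them. Kif20a, Kif23, Kif20b and Kif14 work at the midzone and midbody where the cell is cut apart. Their genes are silenced in resting cells by the DREAM complex and switched on by B-Myb and FoxM1, largely through a promoter element called CHR (cell cycle genes homology region), often beside CCAAT boxes bound by NF-Y. In whole-culture RNA, fewer dividing cells and less transcript per cell cannot be told apart.

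Promoter sequence was examined as a planned description. Any link between the motifs and the values of the 10 transcripts on the arrays was not tested. RefSeq windows (GRCm38.p6) of 300 bases, 250 before and 50 after a start of transcription, were at hand for 9 of the 10 genes, all but Kif20a. A CHR element, searched as TTTGAA or TTCGAA on either strand, was in 8 of these 9 windows, against 13.6% of 12106 windows of tested genes and 19.2% of all 32851 windows. A CCAAT box, searched as CCAAT on either strand, was in 5 of 9, against 37.4% of windows of tested genes and 37.4% of all windows. The CHR word TTCGAA reads the same on both strands, a CHR and a CCAAT match may share an end base, and a window counts once per motif. Near the start, from base -70 to base 30, 6 of 9 kinesin windows held a CHR element, against 3.45% of windows of tested genes. The windows of Kif14 and Kif2c begin 1547 and 3852 bases inside the outermost annotated end of their genes, and their only CHR matches lie at -228 and -103. A match is a description of the letters and not of a bound site.

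The stretches from -70 to 30 of the 6 windows with a CHR element near the start are printed 5′ to 3′ on the gene's strand, with that of Kif18a, whose whole window held neither motif, for contrast. Capitals mark the matches, where TTCAAA is TTTGAA and ATTGG is CCAAT read on the opposite strand. They are Kif11 at chr19:37376312-37376411 (plus strand), Kif15 at chr9:122951011-122951110 (plus strand), Kif22 at chr7:127042391-127042490 (minus strand), Kif4 at chrX:100625995-100626094 (plus strand), Kif23 at chr9:61946770-61946869 (minus strand), Kif20b at chr19:34922288-34922387 (plus strand) and Kif18a at chr2:109280668-109280767 (plus strand).
Kif11: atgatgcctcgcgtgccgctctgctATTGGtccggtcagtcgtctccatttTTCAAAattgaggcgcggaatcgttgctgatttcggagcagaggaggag
Kif15: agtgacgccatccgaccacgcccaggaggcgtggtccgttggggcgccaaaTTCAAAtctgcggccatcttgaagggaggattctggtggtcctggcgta
Kif22: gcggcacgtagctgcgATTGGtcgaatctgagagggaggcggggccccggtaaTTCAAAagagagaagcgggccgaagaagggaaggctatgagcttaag
Kif4: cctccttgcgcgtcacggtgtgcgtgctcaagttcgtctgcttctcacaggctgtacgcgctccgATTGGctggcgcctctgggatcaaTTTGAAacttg
Kif23: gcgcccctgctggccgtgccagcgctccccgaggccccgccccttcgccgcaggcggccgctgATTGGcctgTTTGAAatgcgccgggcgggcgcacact
Kif20b: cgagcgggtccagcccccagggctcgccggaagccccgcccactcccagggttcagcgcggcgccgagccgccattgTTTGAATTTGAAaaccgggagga
Kif18a: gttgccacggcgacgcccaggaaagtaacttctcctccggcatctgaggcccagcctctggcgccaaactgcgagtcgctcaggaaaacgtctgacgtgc
Kif11, Kif15 and Kif22 carry the element at -19, -19 and -17, just before the start. In Kif23, Kif20b and Kif4 it lies just after the start, at 3, at 8 and 14, and at 20. A CCAAT box precedes the CHR element in Kif11, Kif22, Kif23 and Kif4, with its first base at -45, -54, -7 and -5. Among the other gene lists examined, the windows with a CHR element near the start numbered 11 of 19 for spindle, midzone and cytokinesis partners and 7 of 11 for mitotic cyclins, kinases and checkpoint genes, 1 of 4 for the other mitotic kinesins, 3 of 26 for transcription regulators, 0 of 7 for tubulins, 1 of 14 for S phase genes and 2 of 19 for kinesins of interphase transport and other roles. These shares were not tested.

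**Figure D1:**
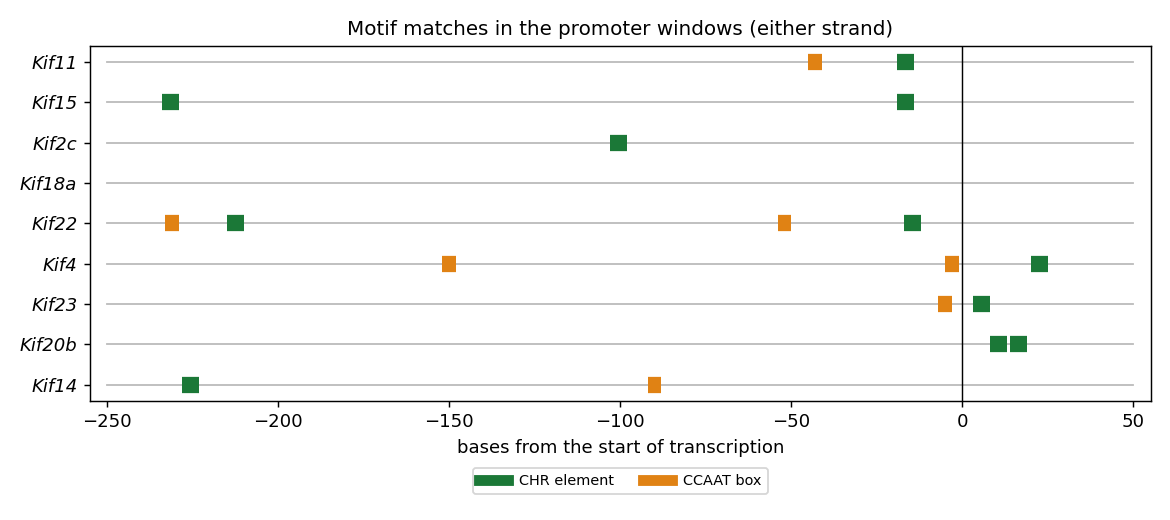
Positions of CHR elements (green) and CCAAT boxes (orange) in the promoter windows of 9 mitotic kinesins, in bases from the start of transcription, which is the vertical line. 6 windows hold a CHR element between -70 and 30, and the window of Kif18a holds neither motif.

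The first comparison sets the mimic arrays against the control arrays. Every one of the 10 kinesins had a lower mean with the mimic than in the controls. In 7 of them the fall passed the test (limma, adjusted p below 0.05), against 2.45% of all genes tested that fell. The falls were modest, with a median log2 fold change of -0.37 over the 10 genes beside -0.01 over all genes tested, and none reached 1.5-fold. The mimic arrays lay wholly below the control arrays in 9 of 10, against 12.7% of all genes tested. Because the 10 genes were chosen with earlier results known, their shares beside those of all genes are a description and not a test.

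Kif11 (gene ID 16551) is the motor that slides antiparallel microtubules apart to separate the spindle poles. It stood at 6.07, 6.24 and 5.83 with the mimic, at 6.84, 6.64 and 6.64 with the inhibitor and at 6.52, 6.37 and 6.52 in the controls (log2 RMA values, replicates 1 to 3). The mimic arrays lay below all others and the inhibitor arrays above the controls. With the mimic it fell by 0.43 ± 0.10 (SE; limma, adjusted p = 0.0418). With the inhibitor its log2 fold change was 0.24 ± 0.10 and missed the threshold (SE; limma, adjusted p = 0.14).

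Kif15 (gene ID 209737) can hold the spindle bipolar beside Kif11. Its values were 4.87, 4.87 and 4.63 with the mimic, 5.51, 5.18 and 5.26 with the inhibitor and 5.14, 5.15 and 5.24 in the controls. All mimic arrays were lower than all controls, while inhibitor and control arrays overlapped. It fell by 0.39 ± 0.09 with the mimic (SE; limma, adjusted p = 0.0497), at the very edge of the threshold. With the inhibitor the log2 fold change was 0.14 (95% interval -0.06 to 0.35).

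Kif2c (gene ID 73804), which takes microtubule ends apart to correct wrong attachments of chromosomes, had the largest fall of the 10 with the mimic. It stood at 7.05, 7.36 and 6.92 with the mimic, at 7.66, 7.57 and 7.62 with the inhibitor and at 7.71, 7.60 and 7.64 in the controls. The mimic arrays were apart from the rest, and inhibitor and control arrays overlapped. The fall was 0.54 ± 0.09, to 0.687 of the control level (SE; limma, adjusted p = 0.0133), and 40 of the 11963 genes tested had a lower log2 fold change. With the inhibitor the log2 fold change was -0.04 (95% interval -0.25 to 0.17).

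Kif18a (gene ID 228421) damps the swinging of chromosomes at the spindle equator, and it had the smallest difference with the mimic. Its values were 4.55, 4.75 and 4.45 with the mimic, 5.14, 4.88 and 4.94 with the inhibitor and 4.79, 4.68 and 4.81 in the controls. It was the only one of the 10 whose mimic and control arrays overlapped, through mimic 2, and its log2 fold change of -0.18 did not pass (limma, adjusted p = 0.35). With the inhibitor all 3 arrays lay above the controls, with a log2 fold change of 0.22 that did not pass either (limma, adjusted p = 0.12).

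The remaining pair of chromosome motors, Kif22 and Kif4, bind DNA and push chromosome arms outward or help to compact them. Kif22 (gene ID 110033) stood at 5.89, 5.89 and 5.70 with the mimic, at 6.17, 6.15 and 6.15 with the inhibitor and at 6.18, 6.10 and 6.04 in the controls. It fell by 0.28 ± 0.06 with the mimic (SE; limma, adjusted p = 0.0369), with no overlap. Kif4 (gene ID 16571) had 4.96, 5.05 and 4.82 with the mimic, 5.61, 5.15 and 5.32 with the inhibitor and 5.22, 5.32 and 5.30 in the controls. Its mimic arrays were likewise below all controls, but the log2 fold change of -0.34 missed the threshold (limma, adjusted p = 0.118). The inhibitor arrays of Kif4 spread widely, with an SD of 0.23 against 0.05 in the controls. With the inhibitor the log2 fold changes were 0.05 for Kif22 (95% interval -0.09 to 0.19) and 0.08 for Kif4 (95% interval -0.15 to 0.31).

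Among the motors of cytokinesis, Kif20a (gene ID 19348), which carries the chromosomal passenger complex to the midzone, had the smallest p-value of the 10. It stood at 6.71, 6.85 and 6.71 with the mimic, at 7.21, 7.08 and 7.13 with the inhibitor and at 7.22, 7.25 and 7.33 in the controls. Mimic and inhibitor arrays alike lay below the controls without overlap. With the mimic it fell by 0.51 ± 0.06 (SE; limma, adjusted p = 0.00208). With the inhibitor the log2 fold change was -0.13 ± 0.06 and did not pass (SE; limma, adjusted p = 0.179).

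Kif23 (gene ID 71819), the motor subunit of centralspindlin, bundles midzone microtubules together with Racgap1. Its values were 6.70, 6.85 and 6.45 with the mimic, 7.23, 7.04 and 7.09 with the inhibitor and 7.21, 7.09 and 7.14 in the controls. Only the mimic arrays stood apart, and the fall was 0.48 ± 0.09 (SE; limma, adjusted p = 0.0202). The inhibitor difference was -0.03 (log2, 95% interval -0.24 to 0.17).

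Kif20b (gene ID 240641), which acts late in cytokinesis, had 5.38, 5.53 and 5.09 with the mimic, 6.10, 5.82 and 5.92 with the inhibitor and 5.71, 5.55 and 5.79 in the controls. The 3 groups did not overlap, with the mimic lowest and the inhibitor highest, although mimic 2 and control 2 were only 0.02 apart as printed. Neither comparison with the controls passed: the log2 fold change was -0.35 ± 0.11 with the mimic (SE; limma, adjusted p = 0.14) and 0.27 ± 0.11 with the inhibitor (SE; limma, adjusted p = 0.149).

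Kif14 (gene ID 381293) binds citron kinase and Prc1 at the midbody. Its main probe set read 4.18, 4.22 and 4.11 with the mimic, 4.49, 4.38 and 4.38 with the inhibitor and 4.46, 4.38 and 4.50 in the controls. The mimic arrays were the lowest, and it fell by 0.28 ± 0.05 (SE; limma, adjusted p = 0.0214). Its other probe set lay under the filter of 3.86 on every array, between 3.25 and 3.36, and was not tested. The inhibitor difference of the main probe set was -0.03 (log2, 95% interval -0.15 to 0.10).

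**Figure D2:**
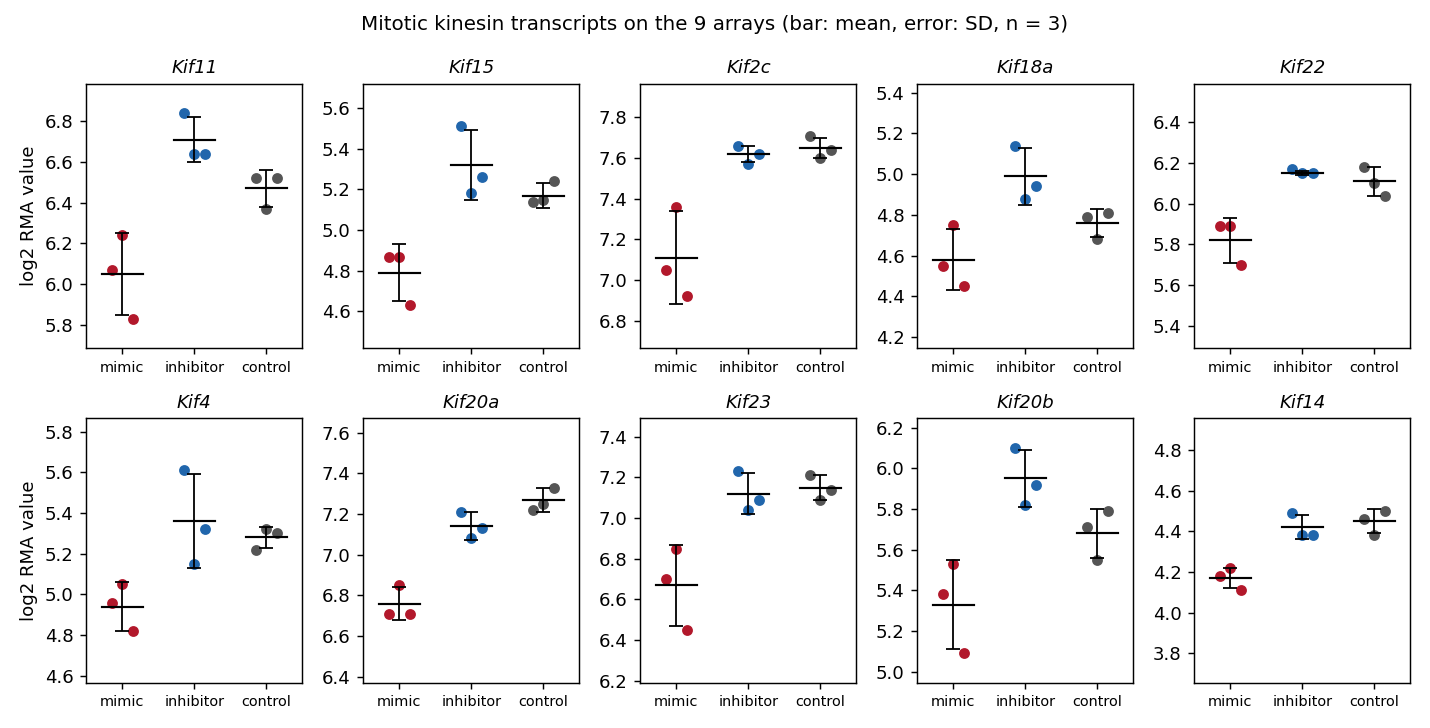
Log2 RMA values of the 10 mitotic kinesins on each array, in the mimic, inhibitor and control groups, with the mean (long bar) and SD (n = 3). All panels span the same range of log2 units but start at different levels, and the 3 mimic points lie below the control points in every panel but that of Kif18a.

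The 7 calls with the mimic depended on which arrays were used, while the direction did not. Kif20a was called in all 9 fits that left out a single array, Kif14 and Kif2c in 6, Kif23 in 5, and Kif11, Kif15 and Kif22 in 3 (limma). Without control 1, control 3 or mimic 1 a single kinesin was called, without control 2 there were 3 and without inhibitor 3 there were 4. Without mimic 3, the array with the lowest kinesin values, 6 kinesins were called, and without both mimic 3 and inhibitor 1 there were 8, with a median of -0.29 in each case. Shifting each array to a common median left 2 calls, with the median at -0.38, and a fit of the 6 mimic and control arrays alone also left 2. Quantile normalization gave 8 calls and array weights 9, with medians of -0.37 and -0.31.

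**Figure D3:**
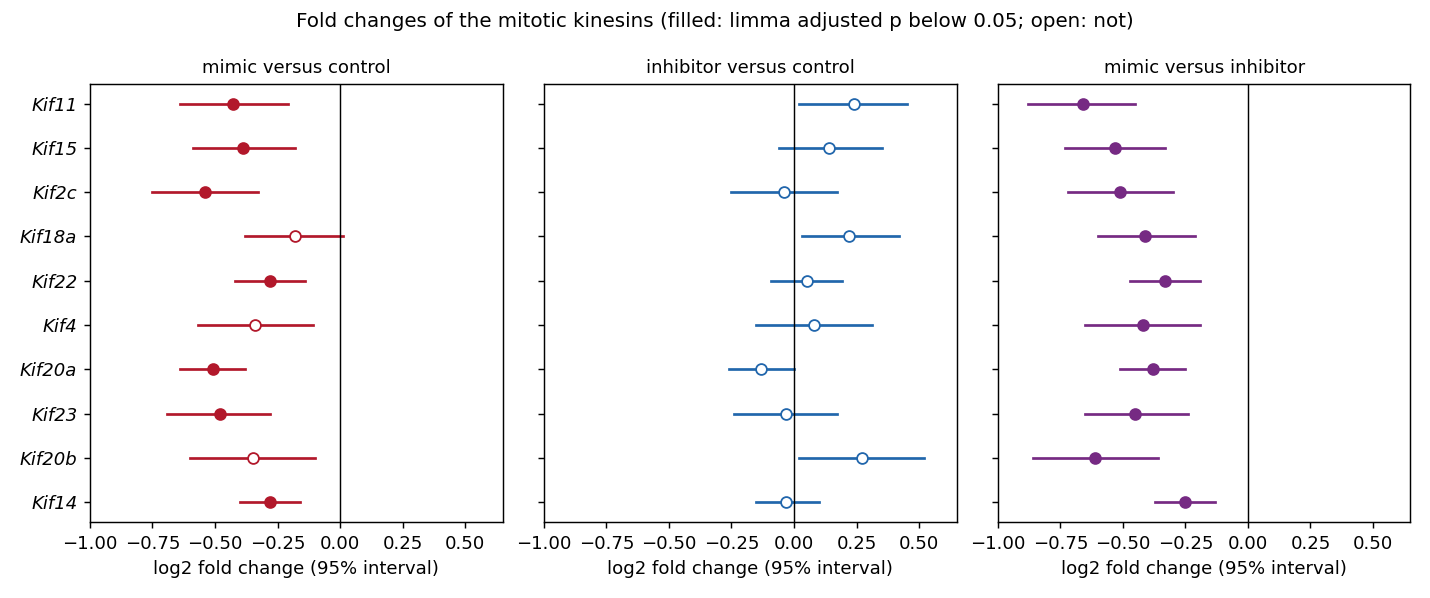
Log2 fold changes of the 10 mitotic kinesins with 95% intervals in the 3 comparisons, filled where limma's adjusted p was below 0.05. All 10 points lie left of 0 for mimic versus control and mimic versus inhibitor, and they lie on both sides of 0, from -0.13 to 0.27, for inhibitor versus control.

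The second comparison sets the inhibitor arrays against the control arrays. No kinesin passed the test with the inhibitor, where 14.9% of all genes tested did (11.1% higher and 3.76% lower), and 3 of the 10 had an unadjusted p below 0.05 (limma). The median log2 fold change was 0.07, beside 0.01 over all genes tested, and without inhibitor 1 it was 0.00. Inhibitor and control arrays did not overlap in 4 genes. Kif11, Kif18a and Kif20b were above the controls, where 24.9% of all genes tested were, and Kif20a was below, where 12.8% were. The means ran in the order mimic, control, inhibitor in 6 genes and mimic, inhibitor, control in Kif14, Kif20a, Kif23 and Kif2c. Fits with other settings made up to 4 calls: Kif11 and Kif20b were higher in the fit of 6 arrays (limma, adjusted p = 0.0356 and 0.0469), Kif20a was lower after quantile normalization (limma, adjusted p = 0.00838), and array weights gave these 3 genes and Kif18a.

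Kif20a and Kif20b, related motors of cytokinesis with similar names, stood at opposite ends with the inhibitor. Set against its own control mean on each array, Kif20b exceeded Kif20a by 0.48, 0.33 and 0.38 (log2) with the inhibitor, by 0.25, 0.27 and -0.03 with the mimic and by 0.08, -0.12 and 0.04 in the controls. The inhibitor arrays were the highest of the 9 in this difference, which was picked after its values were seen and was not tested.

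In the direct comparison the mimic arrays lay below the inhibitor arrays in all 10 genes, against 25.7% of all genes tested. All 10 were called lower with the mimic (limma, adjusted p of at most 0.0134), where 19.9% of all genes tested were. The log2 fold changes ran from -0.66 in Kif11 and -0.61 in Kif20b to -0.25 in Kif14, with a median of -0.43. All 10 calls held in each of the 9 fits without a single array, and in the fit without mimic 3 and inhibitor 1, where the median was -0.30. This comparison uses the same mimic and inhibitor arrays as the others and adds no independent sample.

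The 10 transcripts also varied together within groups. Mimic 3 was the lowest of the 9 arrays in all 10 genes, although in Kif20a it and mimic 1 are equal to 2 decimals, and inhibitor 1 was the highest inhibitor array in all 10 and the highest of all arrays in 6. The median difference from the control mean was -0.31, -0.23 and -0.55 on the mimic arrays, 0.21, -0.03 and 0.04 on the inhibitor arrays and 0.03, -0.05 and 0.05 on the control arrays. After the group means were taken out, the correlation between members over the 9 arrays was above 0 in all 45 pairs, with a median r of 0.80 and a range of 0.09 to 0.98. These points share their arrays and 6 residual degrees of freedom, and mimic 3 and inhibitor 1 are also the arrays at the ends of the first principal component over all genes tested. The part of such array-wide differences in the kinesin values was not tested. The median over all genes tested stayed between -0.05 and 0.02 of the control mean on every array. The upper quartile of an array did move, with 5.55 on mimic 3 and 5.76 on inhibitor 1 against 5.64 to 5.65 on the controls (log2), and the kinesins lie in the upper part of the levels, at the 54.8th to 91.2nd percentile of gene means. After quantile normalization of the arrays the median log2 fold change of the kinesins stayed at -0.37 with the mimic. It went from 0.07 to 0 with the inhibitor, and from -0.43 to -0.37 for mimic versus inhibitor.

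**Figure D4:**
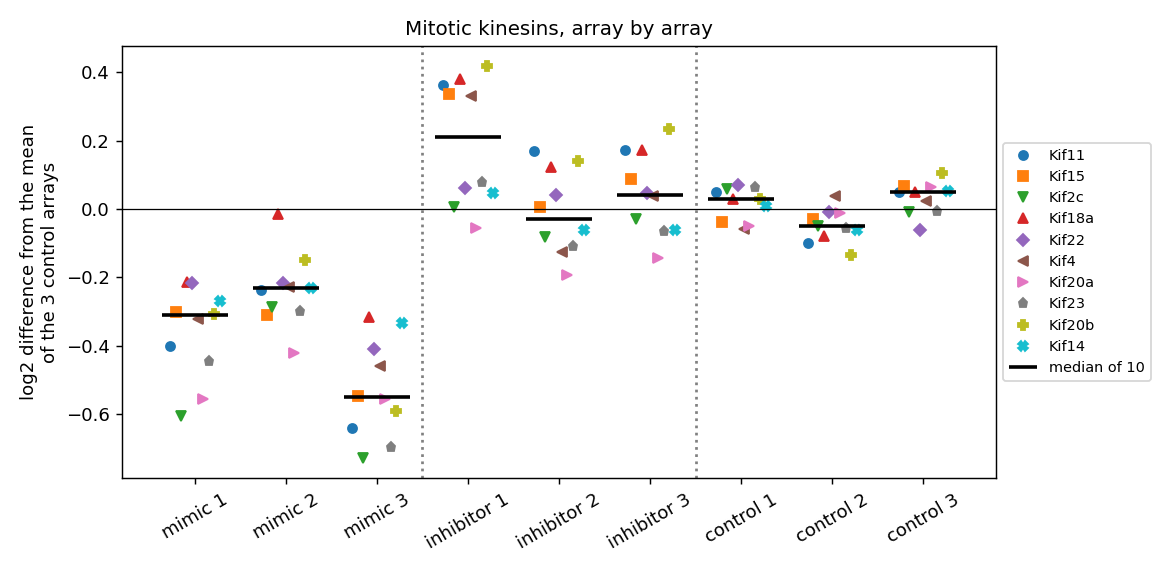
Difference of each mitotic kinesin from the mean of the 3 control arrays (log2), array by array, with the median of the 10 genes as a black bar. The medians of the mimic arrays are -0.31, -0.23 and -0.55, and the single highest median, 0.21, belongs to inhibitor 1.

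Other kinesins with mitotic roles were looked up next. Cenpe, which links kinetochores to microtubules, fell by 0.43 with the mimic, and Kif18b, which shortens astral microtubules, fell by 0.30 (limma, adjusted p = 0.0386 and 0.0468). Neither was called after median centring, with no filter on low values, or without control 1, control 2, control 3, mimic 1, mimic 3 or inhibitor 3. Kif2a, a depolymerase at spindle poles that also works outside mitosis, had a log2 fold change of -0.09 with the mimic (limma, adjusted p = 0.795). With the inhibitor Kif2a rose by 0.41 (limma, adjusted p = 0.043), while Kif18b and Cenpe were not called at 0.13 and 0.01. The call of Kif2a was lost after median centring and with no filter on low values. It was also lost without any 1 of control 1, control 2, control 3, mimic 1, inhibitor 1 or inhibitor 3. The 23 tested kinesins and light chains of interphase transport and other roles had a median of 0.02 with the mimic. Of these 1 fell, where 2.45% of all genes tested did. That was Kif3b, a motor of cilia and organelle transport, which fell by 0.29 (limma, adjusted p = 0.0335). With the inhibitor 2 of the 23 rose, a share below the 11.1% of all genes tested that rose: Kif5b, the conventional kinesin that carries organelles and mRNA outward, by 0.48, and Kifc3 by 0.26 (limma, adjusted p = 0.00397 and 0.017). Kif5b had a log2 fold change of 0.03 with the mimic. With single arrays left out, the count among the 23 ran from 0 to 2 with the mimic and from 1 to 2 with the inhibitor. No tubulin, the track of these motors, was called in either comparison with the controls (limma, 10 tested, 3 with an unadjusted p below 0.05 in each, medians of -0.03 with the mimic and 0.04 with the inhibitor). With mimic and inhibitor compared directly, 4 of the 10 tubulins were lower with the mimic, where 19.9% of all genes tested were. Of the 23 genes of interphase transport and other roles, 5 were lower and 1 was higher.

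Of 20 partners of the kinesins tested, genes of the spindle, the midzone and cytokinesis, 11 fell with the mimic and 9 were not called, with a median of -0.31 and a range of -0.49 to -0.09. Of all genes tested, 2.45% fell with the mimic. Incenp, the scaffold of the passenger complex that Kif20a carries, fell by 0.46, and so did the spindle kinase gene Aurka (-0.48), the cytokinetic ring gene Anln (-0.47) and the abscission gene Cep55 (-0.49), with adjusted p-values from limma no higher than 0.012. Of 13 mitotic cyclins, kinases and checkpoint genes, 6 fell, with a median of -0.33, among them Bub1b (-0.53), Cdc20 (-0.43), Ccna2 (-0.40) and Nek2 (-0.40). With the inhibitor, 0 of the 20 partners were called by limma (2 had an unadjusted p below 0.05) and 1 of the 13 fell, Ccnb2 by 0.34, with medians of 0.05 and 0.00. Of all genes tested, 14.9% were called with the inhibitor and 3.76% fell. In the direct comparison 18 of the 20 and 10 of the 13 were lower with the mimic, where 19.9% of all genes tested were. Ect2, the exchange factor that starts furrowing, had a log2 fold change of -0.61, and Prc1, the midzone bundler to which Kif4 binds, one of -0.56 (limma, adjusted p = 0.00111 and 0.00927).

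S phase genes had other values with the inhibitor. Of 15 S phase entry and licensing genes 14 rose, with a median of 0.44, where 11.1% of all genes tested rose. No kinesin was called, and the kinesin median was 0.07. The cyclin gene Ccne1 rose by 0.65, the licensing factor gene Cdt1 by 0.54, the chromatin assembly gene Chaf1b by 0.54 and the helicase gene Mcm3 by 0.52, with adjusted p-values from limma no higher than 0.00378. With the mimic 5 of the 15 fell, with a median of -0.22, where 2.45% of all genes tested fell. Among the kinesins 7 of 10 fell, with a median of -0.37. Differences between the lists were not tested.

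Of 21 tested transcription regulators of cell cycle genes, 3 fell with the mimic and 18 were not called, with a median of -0.05. Of all genes tested, 2.45% fell. Foxm1, the activator of late cell cycle promoters, fell by 0.41, and so did Nfya, a subunit of the CCAAT-binding factor NF-Y (-0.37), and E2f5 (-0.21) (limma, adjusted p = 0.00545, 0.0395 and 0.035). Mybl2, the gene of B-Myb, and the NF-Y genes Nfyb and Nfyc were not among the genes called with the mimic. With the inhibitor 4 of the 21 rose, where 11.1% of all genes tested did, and 1 fell, where 3.76% did. The largest rises were those of E2f4 (0.51), Rbl1 (0.33), which like E2f4 can be part of DREAM, E2f1 (0.30) and E2f3 (0.25). Foxm1 had a log2 fold change of 0.14 with the inhibitor (limma, adjusted p = 0.157). In the direct comparison 12 of the 21 were lower with the mimic, where 19.9% of all genes tested were. Among the 12 were Foxm1 (-0.55) and the DREAM subunit gene Lin54 (-0.57). Counts in these lists moved with single arrays left out. With the mimic they ran from 5 to 14 among the partners, from 2 to 7 among the mitotic cyclins, kinases and checkpoint genes, from 2 to 8 among the S phase genes and from 1 to 3 among the regulators. With the inhibitor they ran from 10 to 15 among the S phase genes and from 2 to 9 among the regulators.

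**Figure D5:**
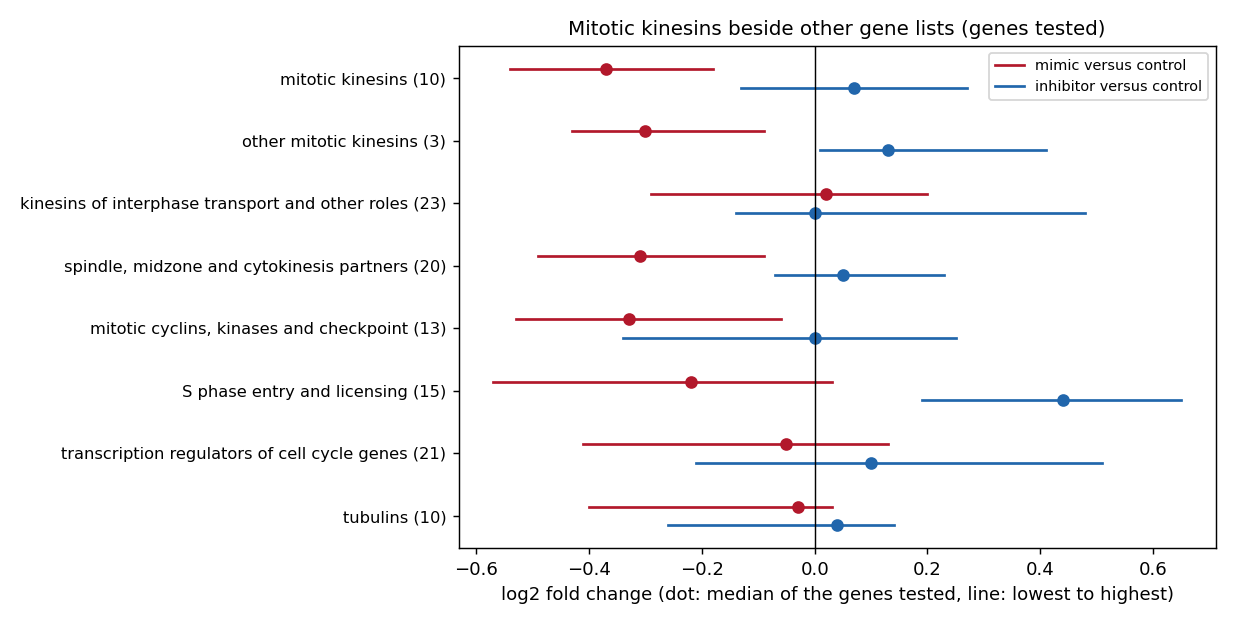
Median (dot) and range (line) of the log2 fold changes of the mitotic kinesins and of 7 other gene lists, with the number of genes tested in brackets, for mimic versus control (red) and inhibitor versus control (blue). The mimic medians are -0.37 for the kinesins, -0.30 for other mitotic kinesins, -0.31 for the partners and -0.33 for mitotic cyclins, kinases and checkpoint genes, and the inhibitor median of the S phase list is 0.44 where that of the kinesins is 0.07.

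The genes whose profile over the 9 arrays was most like the mean profile of the 10 kinesins were found by Pearson correlation among the 11953 other genes tested. The closest was Hmgcs1, which encodes an early enzyme of cholesterol synthesis (r = 0.998), followed by Me1, the malic enzyme that makes NADPH for lipid synthesis (r = 0.993), and Plekhb2 (r = 0.993). Cdca2, Slc7a6, Ncapg, a subunit of condensin, Elovl6, a fatty acid elongase, and Nek2, a kinase of centrosome separation, followed at 0.991 to 0.992. Their log2 fold changes with the mimic ran from -0.58 in Ncapg to -0.30 in Cdca2, and with the inhibitor from 0.06 in Me1 to 0.19 in Ncapg. An r above 0.9 was found for 504 of the 11953 genes (4.22%), and each kinesin correlated with the mean of the other 9 at 0.87 (Kif20a) to 0.97 (Kif11, Kif15 and Kif23). The 9 points share groups and arrays, so these values describe likeness only.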

How the data were processed

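RNA of 9 samples was measured on Affymetrix whole-transcript arrays. For every probe set, each sample's file as the authors deposited it holds a log2 value; per the submitters' processing notes, Partek 6.5 and RMA (robust multi-array average: background correction, quantile normalization of probes, median polish) were used. The log base follows from RMA and the range of the values, 2.64 to 12.48. No genome build is given in the sources used here, and scanner files were not used here. The 28853 probe sets had no missing value.

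Genes were named from the 21789 probe sets with 1 gene in the platform annotation (1621 had several, 5443 none), and where a gene had several, that of the highest mean was taken. Gene IDs of 19856 of 19938 genes matched RefSeq, with all 10 kinesins. A level filter at the 40th percentile of gene means, 3.86, set what was tested.

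The functions lmFit and eBayes of limma 3.58.1 (R 4.3.3) fitted 1 coefficient per group to all 9 arrays, with 6 residual and 4.37 prior degrees of freedom. Adjustment of p-values followed Benjamini and Hochberg over all 11963 genes tested, with a threshold of 0.05, and standard errors are moderated. The number of arrays limits the precision, with a median residual SD of 0.08. The procedure was tested on simulated data whose noise was independent between genes. The kinesins here varied together within groups, so that setting differs from these data. Correlations carry no p. Tested genes of a list are named by a rule: every tested mitotic kinesin, and in the other lists up to 4 called genes per comparison with the largest change, and the 8 genes most like the kinesins in profile. As exceptions, Kif5b and Foxm1 also have their values in comparisons where they were not called, and Mybl2, Nfyb and Nfyc are named as not called. The members and lists were chosen with earlier results of these data known. Alternatives were other level filters, array weights, arrays left out, a replicate block, quantile normalization, separate 6-array fits, a common array median, a minimum fold of 1.5, a trended prior, and averaged probe sets. Protein features were planned, but no protein sequences were used here. Plots were made in Python 3.11.15 with matplotlib 3.10.9.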

Additional observations from a re-analysis of the deposited data

How the results depend on the processing

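Of the 199 member values computed for mimic versus control under 20 other settings, all lay below 0, and so did all 199 for mimic versus inhibitor. Many of these values repeat the main fold change and are no separate evidence of direction. Level filters, 6-array fits, the replicate block, the trended prior, the minimum fold and a left-out array of the third group change only p-values or calls. The count of kinesins called with the mimic was 7. It was 2 after median centring, 2 in the 6-array fit, 4 with the replicate block and 0 with a fold of at least 1.5. The mimic count was 8 after quantile normalization and 9 with array weights, and it ran from 1 to 8 with single arrays left out. The inhibitor count was 0. It was 1 after quantile normalization, 2 in the 6-array fit and 4 with array weights, and it ran from 0 to 2 with single arrays left out. Mimic versus inhibitor had 10 calls, 2 with a fold of at least 1.5, and 10 in each fit without a single array. Array weights came from limma's gene-by-gene method (0.23 for mimic 3, 2.80 for mimic 1), because its default did not converge. With the mean of all probe sets Kif14 dropped under the level filter, so 9 kinesins were tested. The cause of these differences was not tested.

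Over all genes tested, 425 were called with the mimic, against 774 after quantile normalization, 231 after median centring, 248 in the 6-array fit, 36 with a fold of at least 1.5, 1617 with array weights, 921 without mimic 3 and inhibitor 1, and 133 to 582 with single arrays left out. The split was 132 higher to 293 lower, against 335 to 439 after quantile normalization, 710 to 907 with array weights and 300 to 282 without mimic 3. With the inhibitor 1780 were called, against 191 with a fold of at least 1.5, 3532 with array weights and 975 to 2795 with single arrays left out. The split was 1330 to 450, against 1269 to 1021 after quantile normalization. Mimic versus inhibitor had 3204, against 410 with a fold of at least 1.5, and its split of 827 to 2377 became 1670 to 2029 after quantile normalization.

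The labels state no pairing of the samples by replicate number and name no shared batch. The deviations of same-numbered arrays correlated at -0.59 (mimic 2 and inhibitor 2) to 0.22. Those of differently numbered arrays correlated at -0.58 (mimic 3 and inhibitor 1) to 0.63 (mimic 2 and inhibitor 1). With 3 arrays per group these values cannot decide whether the samples were paired.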
